A study of Mus musculus with 8 samples.

Results

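Cells sense oxygen through a set of genes that was followed here in hearts forming with and without Isl1. The set holds 10 genes: the hypoxia-inducible factors Hif1a and Epas1 with their partner Arnt, the oxygen sensors Egln1, Egln2, Egln3 and Hif1an, the degradation factor Vhl, and the targets Vegfa and Bnip3. They were chosen by symbol from 20701 genes in the expression table, and for each symbol the transcript with the highest summed read count was taken. RNA was sequenced from the pharyngeal mesoderm and heart region of single C57BL/6 mouse embryos at E8.75 (6 somites), 4 of them Isl1-/- (knockout) and 4 wild-type. Isl1, a homeodomain factor, acts in progenitors of the heart, and the genotype names no Cre driver that would limit its loss to the heart. Isl1 itself ran from 9.72 to 26.9 CPM in the wild-type group, where CPM are counts per 1e6 reads scaled by TMM for library composition. In the knockout group it ran from 1.78 to 2.40 CPM. The groups did not overlap and the mean fell by 87.5% (edgeR FDR = 0.0041, n = 4 each), so each library carried the Isl1 level of its label. The deleted part of the gene is not given in the sources used here, so the remaining reads may or may not lie outside it.

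Several features of the libraries touch the results that follow. Library totals over 1 transcript per gene ran from 18916452 to 26153039 reads. Knockout embryo 2 is labelled total RNA and the 7 other libraries polyA RNA, and Y-linked reads were present in 3 of 4 knockout and 1 of 4 wild-type embryos. Of 10 cardiomyocyte markers, 9 fell past the edgeR FDR threshold of 0.05 and all 10 had lower knockout values without overlap (median log2 fold change -0.93), with a summed level of 3073 to 4543 CPM in wild-type and 1641 to 2490 CPM in knockout embryos. Of 8 pharyngeal mesoderm markers, 7 were tested and only Isl1 passed, and 1 was at 0 in a library. At an unadjusted edgeR p under 0.05 there were 3 of 7, 1 higher and 2 lower, against 17.4% of all genes. In 2 of 7, both lower, the genotypes did not overlap, against 6.33% of all genes in that direction. Isl1 is among the lower genes in both counts. The median log2 fold change of the 7 was -0.23. No marker of endothelium (9 tested), primitive red cells (9), endoderm (8) or neural tissue and neural crest (8) passed the edgeR FDR threshold of 0.05, and at an unadjusted p under 0.05 there were 1, 0, 0 and 1. Endoderm markers nevertheless summed to between 466 and 5023 CPM from embryo to embryo, and red cell markers to between 379 and 3230 CPM, both highest in knockout embryo 2. Whether a lower value reflects fewer cells of a type or less RNA per cell cannot be told apart in RNA from whole tissue.

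The pathway works by destroying a transcription factor while oxygen is present. Prolyl hydroxylases of the Egln family use oxygen to mark the alpha subunits Hif1a and Epas1, the ubiquitin ligase subunit Vhl recognises the mark, and the proteasome removes the protein. Hif1an hydroxylates a further site that blocks coactivator binding. When oxygen falls, the alpha subunits persist, pair with Arnt and turn on genes for blood vessel growth, metabolism and mitochondrial turnover. Much of this control acts on protein, which RNA counts do not measure. Egln1, Egln3, Bnip3 and Vegfa are themselves known targets of the factors, so their RNA is often read as a sign of pathway activity. The embryonic heart forms at low oxygen, and mice without Hif1a or Arnt die during gestation.

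HIF complexes bind short promoter and enhancer elements with the core ACGTG or GCGTG. These letters were searched on both strands in the 250 bases before the start site, using RefSeq promoters on GRCm38.p6. Of the 10 genes, 9 had a promoter there, Epas1 being the exception, and 7 of these 9 had at least 1 match. Of all genes with a RefSeq promoter 41.5% had a match, and across all 32851 promoter windows 38.6% did. Neither share was limited to expressed genes or matched for base composition. The promoters of Bnip3, Egln1 and Egln3 are printed because these genes are textbook HIF targets that also carry out or limit the response. Capitals mark the core letters, including their reverse complements.
Bnip3: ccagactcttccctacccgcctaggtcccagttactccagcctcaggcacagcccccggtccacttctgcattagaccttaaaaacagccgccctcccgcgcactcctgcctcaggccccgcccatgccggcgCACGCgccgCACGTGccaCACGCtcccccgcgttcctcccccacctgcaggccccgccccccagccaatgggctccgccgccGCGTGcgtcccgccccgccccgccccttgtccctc
Egln1: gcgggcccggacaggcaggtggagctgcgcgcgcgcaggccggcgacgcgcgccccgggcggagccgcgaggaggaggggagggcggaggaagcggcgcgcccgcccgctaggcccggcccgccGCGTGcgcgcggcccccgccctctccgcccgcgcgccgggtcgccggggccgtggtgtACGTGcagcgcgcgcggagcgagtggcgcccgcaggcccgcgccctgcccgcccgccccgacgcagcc
Egln3: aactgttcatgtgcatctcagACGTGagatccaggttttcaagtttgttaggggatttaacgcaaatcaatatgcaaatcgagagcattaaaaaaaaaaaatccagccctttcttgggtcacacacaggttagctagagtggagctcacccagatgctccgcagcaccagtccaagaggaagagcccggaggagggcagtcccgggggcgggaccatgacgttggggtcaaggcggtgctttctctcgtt
They lie at chr7:138909507-138909756, chr8:124949255-124949504 and chr12:54203875-54204124, each on the minus strand and each written 5′ to 3′ toward the gene. Bnip3 had 5 matches, at -117, -108, -107, -99 and -35 from the start, of which those at -108 and -107 are the same palindromic CACGTG read on each strand. Of all promoter windows, 1.01% held 5 or more matches. That cut-off equals the Bnip3 count, the highest among these genes, so the share is not a test. Egln1 had 2, at -126 and -68, and Egln3 had 1, at -229. The promoters of Hif1a and Arnt had 3 and 1, with the Hif1a matches at -135 and -134 again 1 palindrome. Egln2 had 4 in one of its windows and 1 in the other, Vegfa had 2 in one and 0 in the other, and the windows of Vhl and Hif1an had 0. A match is a stretch of letters and was not tested as a binding site.

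All 10 genes were expressed and passed the filter on low counts. Per transcript length, Hif1a was the most abundant of them in wild-type tissue, at 42.2 ± 3.08 RPKM (reads per kilobase of transcript and 1e6 counted reads, SD, n = 4). Bnip3 followed at 30.7 ± 6.81, then Vegfa at 16.6, Egln1 at 15.8, Egln2 at 12.2, Hif1an at 9.97, Vhl at 9.42, Arnt at 8.05, Egln3 at 4.67 and Epas1 at 1.83 RPKM. In that order the ranges of Vegfa and Egln1, of Hif1an and Vhl, and of Vhl and Arnt overlapped, while other neighbours were separate. In the knockout the order of means began with Bnip3 at 44.2 ± 5.66 and Hif1a at 33.6 ± 3.59 RPKM, whose ranges overlapped. Egln1 (21.4) stood above Vegfa (20.3), with overlapping ranges, and Arnt (9.51) above Vhl (9.40), also overlapping. Epas1 was last in both genotypes.

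**Figure D1:**
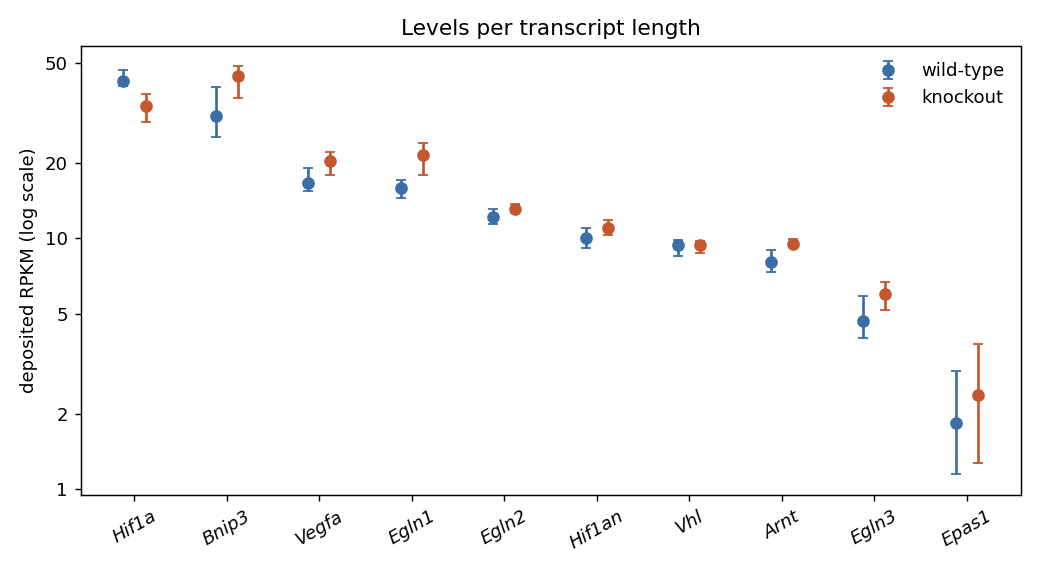
Level of each gene per transcript length, as the mean RPKM of 4 wild-type (blue) and 4 knockout embryos (red) on a log axis, with bars from the lowest to the highest embryo. Hif1a leads at 42.2 RPKM in wild-type and Bnip3 at 44.2 RPKM in knockout embryos, and Epas1 is lowest at 1.83 and 2.37 RPKM.

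Between genotypes, none of the 10 genes passed an edgeR FDR of 0.05, a threshold that 0.973% of the 14075 tested genes passed. At an unadjusted p under 0.05 there were 5 of 10, namely Arnt, Egln1, Vegfa and Bnip3 with higher and Hif1a with lower means in the knockout, against 17.4% of all genes. The count of 5 was 3 without wild-type embryo 1, wild-type embryo 4 or knockout embryo 4. Over all genes it fell as well, from 2453 of 14075 to 1675 of 14205, 2173 of 14183 and 1741 of 14208. In the higher direction the full set gave 4 of 10 against 7.37% of all genes, and in the lower direction 1 of 10 against 10.1%. DESeq2 on the same counts called 3 of 10 (Hif1a, Egln1 and Bnip3) against 5.04% of all genes, and limma on log2(RPKM + 1) called 0. The estimated log2 fold change was above 0 for 8 of 10 genes and had a median of 0.21, while it was above 0 for 51.2% of all genes, with a median of 0.01. In 2 of 10 genes, Hif1a and Egln1, the embryos of the genotypes did not overlap, against 10.3% of all genes (3.96% higher and 6.33% lower). Genes at or above the mean CPM of the least abundant of the 10 gave a similar background, with 1.08% past the FDR threshold and 5.51% called by DESeq2. Of these more abundant genes 18.5% had an unadjusted p under 0.05 (5.59% higher and 13% lower), and 11% did not overlap (2.93% higher and 8.08% lower).

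**Figure D2:**
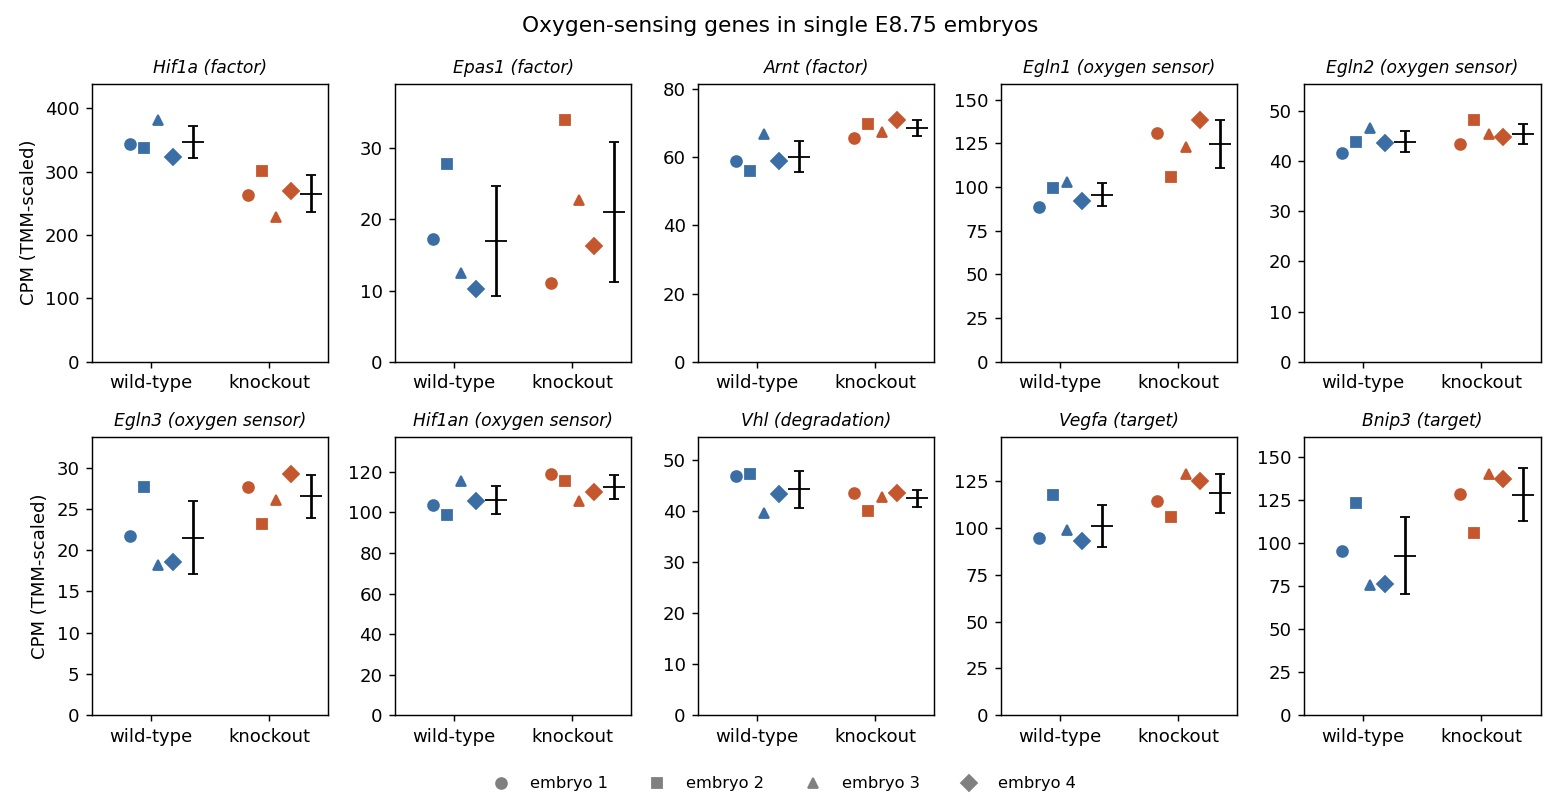
Level of each of the 10 genes in single embryos as TMM-scaled CPM, with 4 wild-type (blue) and 4 knockout embryos (red), a symbol for each embryo number, and the mean with its SD in black. Hif1a is below every wild-type embryo in all knockout embryos and Egln1 above every wild-type embryo, while wild-type embryo 2 (square) lies inside the knockout range for Egln3, Vegfa and Bnip3.

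Hif1a, the oxygen-labile subunit that is most widely expressed, was measured at 344.0, 337, 382 and 324 CPM in the wild-type group, in the order of embryos 1 to 4. In the knockout group it was at 263, 302, 229 and 269 CPM. Every knockout value lay below every wild-type value, with 302 as the highest knockout and 324 as the lowest wild-type level. Hif1a had a log2 fold change of -0.38 ± 0.09 (SE, 95% interval -0.58 to -0.19, edgeR FDR = 0.0772). DESeq2 gave an adjusted p of 0.00493 for Hif1a, whereas edgeR with the presence of Y-linked reads as a term gave a log2 fold change of -0.29 and an FDR of 0.236. Hif1a lies at chromosome 12, 75002362 to 75048517 on the plus strand in mm9, and 330 bases of its exons also belong to Gm15283 on the other strand. Since reads of both strands were counted, reads in that stretch cannot be assigned to one gene.

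Epas1 encodes the alpha subunit known from endothelium and other specialised cells. It was at 17.3, 27.8, 12.5 and 10.3 CPM in wild-type and at 11.1, 34.0, 22.6 and 16.3 CPM in knockout embryos. The genotypes overlapped over most of their range, and embryo 2 was the highest in each. Epas1 had a log2 fold change of 0.31 ± 0.37 (SE, 95% interval -0.52 to 1.14, edgeR FDR = 0.707), which was -0.020 without knockout embryo 2. Markers of endothelium did not pass the test, with Pecam1 at a log2 fold change of 0.06, Cdh5 at -0.26, Kdr at -0.14 and Flt1 at 0.00. Of all 9 endothelial markers, 2 had a log2 fold change above 0 and 7 below, with a median of -0.10. One was lower at an unadjusted edgeR p under 0.05, against 10.1% of all genes. Their summed level, over 9 markers, was 394 to 510 CPM in wild-type and 326 to 459 CPM in knockout embryos. None of the 9 was at 0.

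Arnt, the stable partner of both alpha subunits, was at 59.0, 56.0, 66.7 and 58.9 CPM in wild-type and at 65.7, 69.7, 67.3 and 70.9 CPM in knockout embryos. Only wild-type embryo 3 reached into the knockout range. Arnt had a log2 fold change of 0.19 ± 0.07 (SE, edgeR FDR = 0.222). Among the alpha subunits, Hif1a held 93.8 ± 1.86% of the summed RPKM in wild-type and 89.8 ± 2.04% in knockout tissue (SD, n = 4 each). Epas1 held 4.10 ± 1.88% and 6.26 ± 2.50%, with overlapping ranges for both genes. Hif3a, a related alpha subunit whose short forms are known to oppose the others, held 2.10 ± 0.06% in wild-type and 3.92 ± 0.74% in knockout embryos. These Hif3a shares did not overlap, but their divisor is mostly Hif1a, so they do not measure Hif3a alone.

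Egln1 encodes the prolyl hydroxylase known as the main brake on HIF in normal oxygen. It was at 88.3, 99.4, 102.8 and 92.0 CPM in wild-type embryos and at 130.9, 106.0, 123.0 and 138.3 CPM in knockout embryos. Knockout embryo 2 was closest to the wild-type range but still above its highest value. The log2 fold change of Egln1 was 0.38 ± 0.09 (SE, 95% interval 0.19 to 0.58, edgeR FDR = 0.0784), a level 1.30 times that of wild-type. Egln1 passed with DESeq2 (adjusted p = 0.00376), and with edgeR it passed without knockout embryo 2 (FDR = 0.0317) and without wild-type embryo 3 (FDR = 0.0454). Over all genes 138 passed without knockout embryo 2 and 490 without wild-type embryo 3, against 137 with all embryos. Leaving out any other embryo gave Egln1 an edgeR FDR of 0.136 to 0.241. With Y-linked reads as a term the log2 fold change was 0.32 and the FDR 0.289.

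Egln2, a hydroxylase of the same family that is not known for strong induction by low oxygen, was at 41.6, 43.7, 46.7 and 43.6 CPM in wild-type and 43.3, 48.2, 45.4 and 44.8 CPM in knockout embryos. The embryos overlapped at a log2 fold change of 0.05 ± 0.07 (SE, 95% interval -0.10 to 0.20, edgeR FDR = 0.751). Egln2 shares 11 exon bases with Cyp2t4 on the other strand. Egln3, the family member most strongly induced by hypoxia in many cells, was at 21.7, 27.7, 18.2 and 18.6 CPM in wild-type and 27.6, 23.2, 26.1 and 29.3 CPM in knockout embryos. Wild-type embryo 2 lay inside the knockout range and the other wild-type embryos below it. Egln3 differed by a log2 fold change of 0.30 ± 0.14 (SE, 95% interval -0.01 to 0.62, edgeR FDR = 0.308).

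As a family, the 3 Egln genes summed to 32.6 ± 1.70 RPKM in wild-type and 40.5 ± 2.93 RPKM in knockout embryos, and the genotypes did not overlap. Egln1 made up 48.4 ± 1.28% of the sum in wild-type and 52.7 ± 2.82% in knockout tissue. Egln2 made up 37.3 ± 1.58% and 32.5 ± 3.38%, and Egln3 14.3 ± 2.55% and 14.8 ± 0.56%. The shares of all 3 overlapped between genotypes. The sum was formed with the values of the single genes known and has no test. Egln1, its largest part, did not overlap on its own, and 3.96% of all single genes were apart and higher on the TMM scale. RPKM are scaled by library totals. On that scale limma put 8871 of 14075 genes above 0, against 7207 with edgeR and TMM.

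Hif1an, the asparaginyl hydroxylase, was at 103.8, 98.8, 115.5 and 105.8 CPM in wild-type and 119.1, 115.5, 105.4 and 109.8 CPM in knockout embryos. For Hif1an the genotypes overlapped at a log2 fold change of 0.09 ± 0.07 (SE, 95% interval -0.06 to 0.23, edgeR FDR = 0.538). Vhl, which recognises the hydroxylated alpha subunits, was at 46.7, 47.3, 39.5 and 43.3 CPM in wild-type and 43.5, 39.9, 42.7 and 43.5 CPM in knockout embryos. All knockout values of Vhl fell inside the wild-type range, with a log2 fold change of -0.06 ± 0.08 (SE, 95% interval -0.24 to 0.11, edgeR FDR = 0.733). For Egln2, Hif1an and Vhl the 95% intervals stayed between -0.24 and 0.23 on the log2 scale, so larger differences lay outside them.

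**Figure D3:**
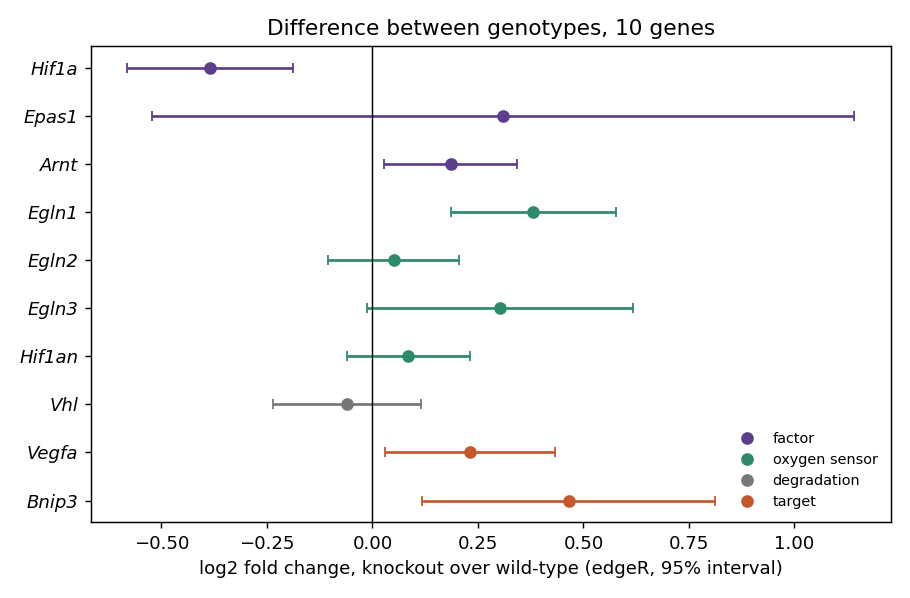
Log2 fold change of each gene, knockout over wild-type, with its 95% interval from edgeR, coloured by role in the pathway. The interval of Hif1a (-0.58 to -0.19) lies below 0, those of Arnt, Egln1, Vegfa and Bnip3 above 0, and that of Epas1 is the widest (-0.52 to 1.14).

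Vegfa, the growth factor that draws vessels toward low-oxygen tissue, was at 94.8, 117.3, 98.8 and 92.8 CPM in wild-type and 114.4, 106.0, 128.9 and 124.7 CPM in knockout embryos. Wild-type embryo 2 was higher than knockout embryos 1 and 2, and the other wild-type embryos lay below all knockout embryos. Vegfa differed by a log2 fold change of 0.23 ± 0.09 (SE, 95% interval 0.03 to 0.43, edgeR FDR = 0.233). The table lists 10 Vegfa transcripts that share most of their reads, so isoforms were not compared.

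Bnip3, a mitochondrial protein that directs mitochondria to autophagy, was at 95.4, 123.2, 75.9 and 76.3 CPM in wild-type and 128.4, 106.0, 140.3 and 137.0 CPM in knockout embryos. Embryo 2 of each genotype lay toward the other one, since wild-type embryo 2 was the highest of its group and knockout embryo 2 the lowest. Bnip3 had a log2 fold change of 0.46 ± 0.16 (SE, 95% interval 0.12 to 0.81, edgeR FDR = 0.178). The DESeq2 adjusted p of Bnip3 was 0.0415.

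Wild-type embryo 2 was the highest wild-type embryo for 5 of the 10 genes (Epas1, Egln3, Vhl, Vegfa and Bnip3) and for 21 of the 36 targets outside glycolysis that are described next, against 27.3% of all genes tested. Without it, 5 genes did not overlap between genotypes (Hif1a below, Egln1, Egln3, Vegfa and Bnip3 above), against 13.7% of all genes in the same 7 libraries, and 0 passed the edgeR FDR threshold. Leaving out an embryo that is so often the highest of its group in these genes favours such a gap, so the comparison is not a test. Immediate early genes, a list of 8 that was drawn up after the values had been seen and includes Fos, Jun and Egr1, were high in wild-type embryos 1 and 2. They summed to 838, 1192, 126 and 206 CPM in wild-type and 109, 113, 192 and 111 CPM in knockout embryos. All 8 had an unadjusted edgeR p under 0.05 with lower knockout means, against 10.1% of all genes. With edgeR 0 of 8 passed the FDR threshold and DESeq2 called 4, against 5.04% of all genes. In 2 of 8 the genotypes did not overlap, against 10.3%. As the list came after the values, these shares do not test it. Wild-type embryo 1, also high for these genes, was not the highest wild-type embryo for any of the 10 oxygen-sensing genes. It ranked next after wild-type embryo 2 for Epas1, Egln3, Vhl and Bnip3, and for Vegfa it lay below wild-type embryo 3 as well. Immediate early genes are known to respond within minutes to many stimuli, and their part in the values of the oxygen-sensing genes was not tested.

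The wider pathway was read from 3 further lists. The first holds 27 partners, cofactors and degradation factors, of which 0 passed the edgeR FDR threshold. At an unadjusted p under 0.05 there were 5, near the 17.4% of all genes, 1 with a higher and 4 with lower knockout means. Their median log2 fold change was -0.04, with 10 of 27 above 0, but it was 0.02 with library totals in place of TMM and 0.02 with limma. The count of 5 was 3 without wild-type embryo 2 and 3 without knockout embryo 1. Over all genes it fell from 2453 of 14075 to 1957 of 14204 and 1810 of 14187. Hif3a stood at the top of the list, at 11.7, 10.9, 12.1 and 10.2 CPM in wild-type and 16.6, 14.8, 14.6 and 20.8 CPM in knockout embryos, without overlap. On the log2 scale the fold change was 0.57 ± 0.13 (SE, edgeR FDR = 0.0785, DESeq2 adjusted p = 0.00431). Cited4 (0.15) and Usp20 (0.13) came next, both with overlapping embryos. At the other end were Hsp90aa1, a chaperone that holds Hif1a stable, at a log2 fold change of -0.27, Eloc, which links Vhl to its ligase, at -0.27, and the ubiquitin ligase Siah1b at -0.26. Of these only Hsp90aa1 passed with DESeq2 (adjusted p = 0.0239), and only Siah1b had embryos that did not overlap.

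The second list holds 36 HIF targets outside glycolysis, none of which is among the 10 genes, although Cited2 is also in the first list and Flt1 and Tek are also endothelial markers. With edgeR 0 of 36 passed the FDR threshold, while 14 had an unadjusted p under 0.05, all with higher means in the knockout, against 7.37% of all genes in that direction. The log2 fold change was above 0 for 28 of 36 and had a median of 0.25. DESeq2 called 5, Ddit4, P4ha2, Gys1, Ankrd37 and Stc2, all higher, against 5.04% of all genes in either direction, and limma called 0. Embryos of the genotypes did not overlap in 2 of 36, P4ha2 and Gys1, both higher, against 3.96% of all genes in that direction (10.3% in either). The count of 14 was 7 without wild-type embryo 4 and 8 without knockout embryo 4, against 6.35% and 4.66% of all genes, and 18 without knockout embryo 2, against 8.41%, all of them higher. Without wild-type embryo 3 there were 9 higher, against 9.82%, and 2 lower. With Y-linked reads as a term, 9 of 36 had an unadjusted p under 0.05, all higher, against 6.02% of all genes. The score of the list, found by averaging log2(CPM + 1) of its genes after subtracting each gene's mean of the 8 embryos, was -0.08, 0.09, -0.21 and -0.32 in wild-type and 0.16, -0.03, 0.15 and 0.24 in knockout embryos. Embryo 2 of each genotype again lay toward the other, and these were the embryos whose scores overlapped.

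**Figure D4:**
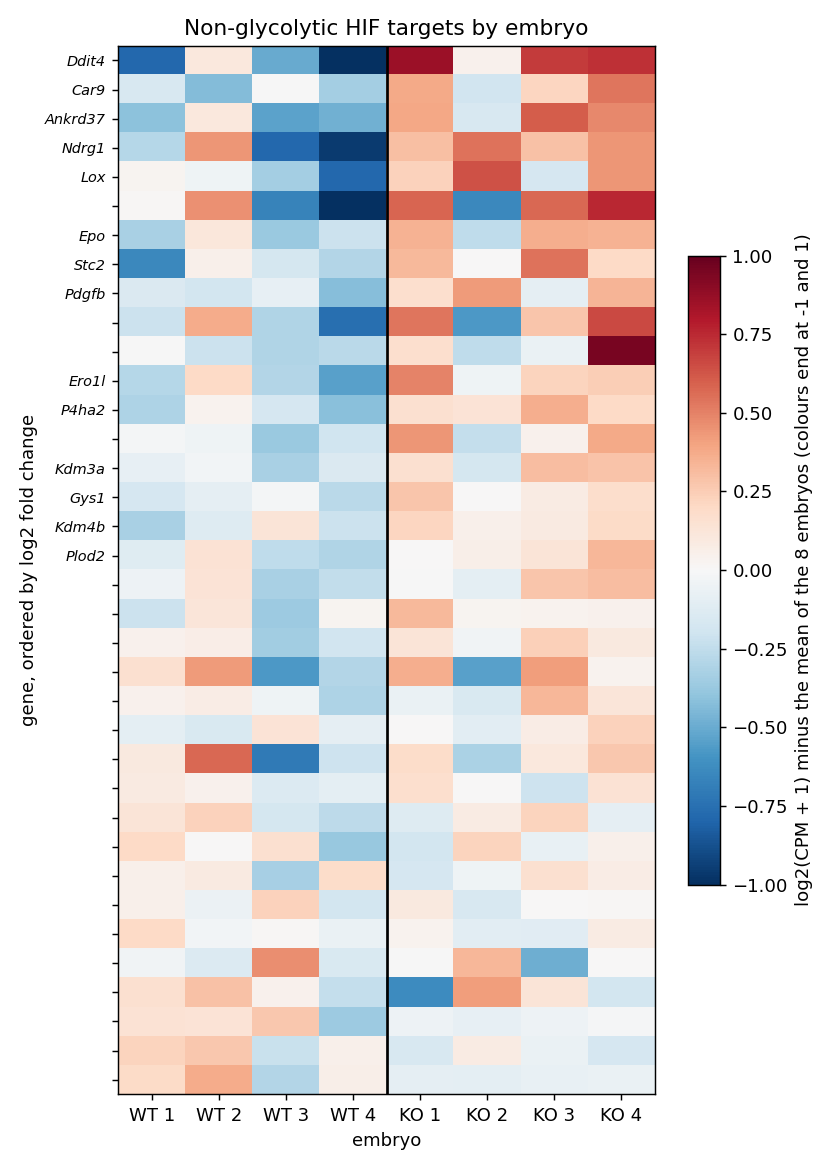
The 36 targets outside glycolysis (rows, ordered by log2 fold change) in 8 embryos (columns), coloured by log2(CPM + 1) minus the mean of the 8 embryos, with names for the 14 genes at an unadjusted edgeR p under 0.05. The upper rows are mostly blue in wild-type embryos 1, 3 and 4 and red in knockout embryos 1, 3 and 4, with wild-type embryo 2 and knockout embryo 2 in between, whose scores over the list were 0.09 and -0.03.

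Ddit4, an inhibitor of mTORC1 that is induced by hypoxia and other stresses, had the highest log2 fold change of the list in the edgeR fit of all 8 embryos. It was at 38.3, 71.6, 46.7 and 29.3 CPM in wild-type and 121, 68.7, 109 and 111 CPM in knockout embryos. Knockout embryo 2 lay just below wild-type embryo 2, and the other knockout embryos were above all wild-type embryos. Ddit4 differed by a log2 fold change of 1.14 ± 0.26 (SE, edgeR FDR = 0.0784). Without wild-type embryo 2, Ddit4 and Ndrg1 passed the edgeR FDR threshold, without knockout embryo 2 Ddit4 did, and without wild-type embryo 3 Kdm4b did. Over all genes these fits called 85 of 14204, 138 of 14171 and 490 of 14179, against 137 of 14075 with all embryos. Embryo 2 of each genotype lay toward the other in this list, so leaving either out favours such calls. Car9, a carbonic anhydrase that is a standard marker of hypoxia, had a log2 fold change of 0.78 ± 0.28 (SE, edgeR FDR = 0.202) at only 0.931 to 1.60 CPM in wild-type and 1.29 to 2.79 CPM in knockout embryos. Ankrd37 had a log2 fold change of 0.74 ± 0.22 (SE, edgeR FDR = 0.137). The lowest of the list were the transferrin receptor Tfrc at -0.19 and the mitochondrial protein Higd1a at -0.17, both with overlapping embryos.

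P4ha2, a collagen prolyl hydroxylase named here after its values were seen, was at 32.3, 41.3, 35.7 and 29.8 CPM in wild-type and 45.0, 44.2, 51.9 and 46.3 CPM in knockout embryos. On the log2 scale the fold change was 0.43 ± 0.11 (SE, edgeR FDR = 0.0928, DESeq2 adjusted p = 0.00427). Gys1, the muscle glycogen synthase, was at 77.1, 81.3, 85.6 and 71.8 CPM in wild-type and 105, 87.0, 92.1 and 98.2 CPM in knockout embryos. In both genes every knockout embryo lay above every wild-type embryo. Without wild-type embryo 2, 8 of the 36 targets had embryos apart, all higher in the knockout, against 5.66% of all genes in that direction. This embryo was the highest wild-type embryo for 21 of the 36, against 27.3% of all genes. Leaving it out therefore favours such a gap in this list, and the comparison is not a test.

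The third list holds 20 glycolytic genes and transporters known as HIF targets, given for comparison. With edgeR 0 of 20 passed the FDR threshold. At an unadjusted p under 0.05 there were 3, against 17.4% of all genes. Of these 2 were higher, 10% of the list against 7.37% of all genes, and 1 was lower, against 10.1%. Of the list, 16 of 20 log2 fold changes were above 0, against 51.2% of all genes, their median being 0.10. The count of 3 was 5 without wild-type embryo 2 or knockout embryo 2. Over all genes it went from 2453 of 14075 to 1957 of 14204 and 2506 of 14171. Aldoc, a glycolytic aldolase, had the highest log2 fold change at 0.64 ± 0.19 (SE, edgeR FDR = 0.142), followed by Pdk1, which holds pyruvate back from mitochondria, at 0.34 ± 0.10 (FDR = 0.139) and Pfkfb3 at 0.26. DESeq2 called Aldoc and Pdk1, 2 of 20, against 5.04% of all genes. Pgam1 was lowest at -0.32 (edgeR FDR = 0.244), ahead of Hk1 at -0.10 and Ldha at -0.08. Ldha, which turns pyruvate into lactate, was at 2304 to 3241 CPM in wild-type and 2543 to 2827 CPM in knockout embryos, so the knockout embryos lay within the wild-type range. No gene of the list had embryos apart.

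**Figure D5:**
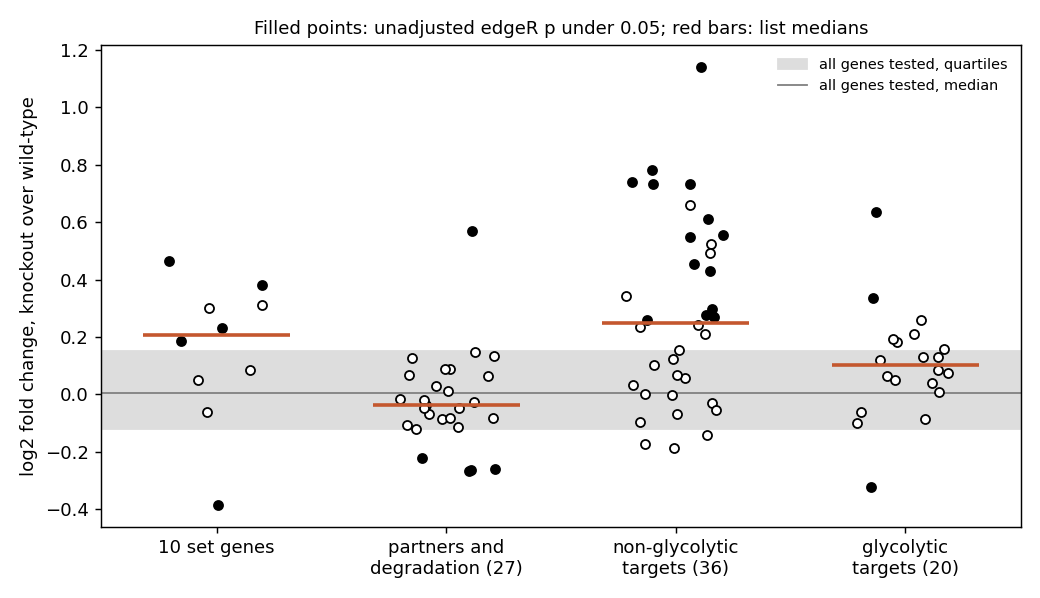
Log2 fold change, knockout over wild-type, of the 10 genes and the 3 pathway lists, with filled points for an unadjusted edgeR p under 0.05, red bars for list medians (0.21, -0.04, 0.25 and 0.10 from left to right) and a grey band for the quartiles of all 14075 genes tested. The filled points of the targets outside glycolysis all lie above 0.

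Promoter matches to the HIF core letters were common in these lists as well. Of genes with a promoter in the table, 14 of 20 partners and degradation factors, 21 of 25 targets outside glycolysis and 17 of 19 glycolytic targets had at least 1, against 41.5% of all genes. That share was not limited to expressed genes or matched for base composition, so it does not show an excess particular to HIF targets. Beside these lists, cardiomyocyte markers had a median log2 fold change of -0.93, with 9 of 10 past the edgeR FDR threshold. Pharyngeal mesoderm markers had a median of -0.23, with only Isl1 past the threshold. Endothelial and endoderm markers had medians of -0.10 and 0.34, and red cell markers 0.50, without passing the test. The part of these cell types in the pathway values was not tested.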

How the data were processed

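Single embryos were sequenced from 100 ng of total RNA per the labels. STAR was run by the authors against mm9 with introns of 20 to 500000 bases allowed, and reads were counted over exons of RefSeq transcripts on both strands with HOMER, so the deposited counts are raw reads. RPKM columns were also deposited, computed by the authors in edgeR, and the counts returned them to within 0.000492. The processing notes list STAR, DESeq2, edgeR and mm9, and versions are not given in the sources used here. The deposited columns of the authors' DESeq2 comparison (mean, fold change, error, statistic and p-values) were not used. Litters are not given in the sources used here.

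For each of 20701 symbols the transcript with the highest summed counts was kept, and totals were 18916452 to 26153039 reads, whose precision covers counting error only. Genes were filtered with filterByExpr, scaled by TMM and tested in R 4.3.3 with the quasi-likelihood model of edgeR 4.0.16, genotype as its single term, two-sided, with Benjamini-Hochberg adjustment (FDR) over 14075 genes. DESeq2 1.42.0 and limma 3.58.1 (log2(RPKM + 1)) were alternatives, beside other scalings, no filter, a replicate block, Y-linked reads as a term, the second transcript of a gene and leaving out each embryo. An estimated interval covers 95%. Python 3.11.15 with numpy 2.4.6, pandas 2.3.3 and matplotlib 3.10.9 made the tables and plots. Gene positions came from GENCODE vM1 (mm9) and promoters from RefSeq.

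The 10 genes and the lists were chosen with earlier results of these data known, and the alternative on the RPKM scale, the background over genes of higher CPM and the immediate early list were added after the values were seen. Named genes were Isl1, the 10 genes, any gene of the 3 pathway lists past the FDR threshold, the 3 genes with the highest and the 3 with the lowest log2 fold change of each list, and 4 endothelial markers. One gene that the rule chose is not reported here. Others were named after their values were seen.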

Additional observations from a re-analysis of the deposited data

Results flagged for a closer look

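Among the 10 genes, Isl1 and the 18 list genes chosen for naming, each genotype was examined for an embryo far from the other 3, which made 58 groups. One stood apart, Ankrd37 in wild-type embryo 2 at 8.82 CPM, where the other wild-type embryos were at 5.88, 5.31 and 5.55 CPM. Its gap to the nearest embryo was 0.837 of the range of the group, above Dixon's critical value for 4 samples. Chance flags about 1 in 20 such groups, so 1 of 58 is no more than chance gives. The value lies inside the knockout range of 7.17 to 12.9 CPM.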

How the results depend on the processing

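Of 160 values of single genes under alternatives, 154 kept their direction and side of the threshold. Hif1a, Egln1 and Bnip3 passed with DESeq2 and Egln1 without wild-type embryo 3 or knockout embryo 2, and the log2 fold change of Epas1 reversed to -0.020 without knockout embryo 2 (0.65 without wild-type embryo 2). The causes were not tested. The 137 genes past the edgeR threshold became 709 with DESeq2, which held all 137. DESeq2 called 3 of the 10 genes, 2 partners and degradation factors, 5 targets outside glycolysis and 2 glycolytic targets, where edgeR called 0. Leaving out 1 embryo gave 70 (without knockout embryo 4) to 490 genes (without wild-type embryo 3), 0 to 1 of the 10 genes, 0 to 2 partners, 0 to 2 targets outside glycolysis and 0 to 1 glycolytic targets. The number of the 10 genes whose embryos did not overlap was then 2 to 5, with 5 without wild-type embryo 2.

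With the replicate number as a block, 76 genes passed, 72 of them among the 137, and 0 of the 10 genes. Deviations of same-numbered embryos correlated at 0.0355 to 0.559, and 1 of 4 knockout embryos was closest to its own number, so the numbers were not taken as pairs. Library totals in place of TMM turned the split at an unadjusted p under 0.05 from 1038 higher and 1415 lower to 1595 higher and 876 lower, and the median of all genes from 0.01 to 0.06. The 10 genes kept their directions under each scaling.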
